A study of Mus musculus with 6 samples.

Results

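The 33 genes described here form a glycolysis and hypoxia-response module, measured on arrays of a beta cell line with and without a Meg3 transgene. They were chosen by name, as glucose and lactate transporters (3 genes), enzymes of the glycolytic chain (15), controls of glycolytic flux and pyruvate fate (3), oxygen-sensing genes (7) and other targets of the hypoxia response (5). All 33 of the 33 were measured, among 20416 genes on the array, through 392 probe sets that carry exactly 1 gene symbol. A gene's value on an array is the mean log2 value of its probe sets.

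Glycolysis splits glucose into pyruvate in the cytosol. When oxygen is short, lactate dehydrogenase turns pyruvate into lactate, which monocarboxylate transporters carry out of the cell. Cells sense oxygen through prolyl hydroxylases (the EGLN or PHD enzymes), which mark the alpha subunits of hypoxia-inducible factor (HIF) for capture by the VHL protein and destruction. In low oxygen HIF alpha persists, pairs with ARNT and raises transcription of most glycolytic genes, of survival and vessel-growth genes, and of the hydroxylase gene Egln3 itself, which acts as feedback. Normal beta cells are unusual in keeping lactate dehydrogenase and monocarboxylate transporter genes low. Glucose carbon then goes to mitochondria and couples glucose to insulin release. Levels of these genes in this cell line are given below.

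The cells were MIN6-4N, a mouse pancreatic beta cell line, transfected by nucleofection with the plasmid pcDNA3.1 (vector group) or with pcDNA3.1 carrying mouse Meg3 (Meg3 group), an imprinted long non-coding RNA gene. Selection in 750 µg/ml G418 for 5 weeks was followed by cloning, and both groups were grown in low-glucose DMEM with 15% serum, 500 µg/ml G418 and 5% CO2 at 37 °C. No label names a change of oxygen. Each group is 3 independent cultures of a single picked clone, so the effect of Meg3 and any other difference between the clones cannot be told apart, and p-values measure the spread between cultures. The labels give the Meg3 clone inconsistent names and mention sorted cells that no protocol describes.

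Meg3 was 5.63, 6.00 and 5.88 (log2) in vector replicates 1 to 3 and 7.24, 7.91 and 7.53 in Meg3 replicates 1 to 3, so the groups did not overlap. The difference was 1.72 (SE 0.19, limma adjusted p = 0.00756), a 3.30-fold rise. The call was lost without Meg3 replicate 3 (adjusted p = 0.0666), with the brightest probe set (2.02, adjusted p = 0.241) and with the median of probe sets (3.33, adjusted p = 0.0629), and 4 of its 5 probe sets were higher. The beta cell markers were present on every array, with array means of the 15 listed genes from 10.47 to 10.71 in the vector group and 10.44 to 10.64 in the Meg3 group, and 0 of them were called by limma (1 had an unadjusted p under 0.05). Glucagon (Gcg), an alpha cell hormone gene, was also bright, at 12.82 ± 0.12 and 12.66 ± 0.11 (SD, n = 3 each). It was the brightest of the 6 measured genes listed for other islet endocrine cells. Array means of that list were only 7.67 to 7.72 and 7.71 to 7.81, vector group first. Of the 6, 2 lay below the median of all genes, and 0 were called by limma. Markers of exocrine pancreas (7 of 7 measured genes), fibroblasts (7 of 8) and endothelium or leukocytes (6 of 8) mostly lay below the median of all genes, 6.66, and 0 of these were called (limma; 1 had an unadjusted p under 0.05). Their array means ranged from 5.50 to 5.63 and 5.50 to 5.62 for exocrine genes, from 5.77 to 6.10 and 5.82 to 5.94 for fibroblast genes, and from 5.80 to 5.88 and 5.72 to 5.84 for endothelial and leukocyte genes, vector group first. Vector replicate 2 and Meg3 replicate 1 stood apart. Measured against the median over the remaining arrays, probe sets scattered with an SD of 0.85 and 0.63 log2 units there and 0.42 to 0.48 on the others. Without them 2 beta cell markers were called lower (limma), in a fit that called 4.01% of all genes lower. These were the prohormone convertase genes Pcsk1 (-0.56, adjusted p = 0.0163) and Pcsk2 (-0.40, adjusted p = 0.0450). Of the endothelial and leukocyte markers the T cell gene Cd3e was called lower (-0.72, adjusted p = 0.00238). All were named after their values were seen. With these arrays as a block Pcsk1 and Cd3e were called (limma adjusted p = 0.0155 and 0.0288), beside 2.69% of all genes called lower. Their part in the results on the module was not tested.

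Comparing the clones shows which of these genes differed in level. One change stood out. The prolyl hydroxylase gene Egln3 fell 2.85-fold in the Meg3 clone, while the genes for its substrates and for the other two hydroxylases differed by less than the spread allows to call. Of the 33 members, 1 was called lower and 0 higher (limma, Benjamini-Hochberg adjusted p under 0.05), where the background over all genes was 0.465% lower and 0.201% higher. At an unadjusted p under 0.05 there were 6 lower and 1 higher members, beside 4.28% and 2.68% of all genes. In sign, differences were negative for 23 of 33 members, beside 48.4% of all genes, with a median of -0.18 against 0.01 for all genes. In bulk RNA, fewer cells expressing a gene and less RNA per cell cannot be told apart.

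**Figure D1:**
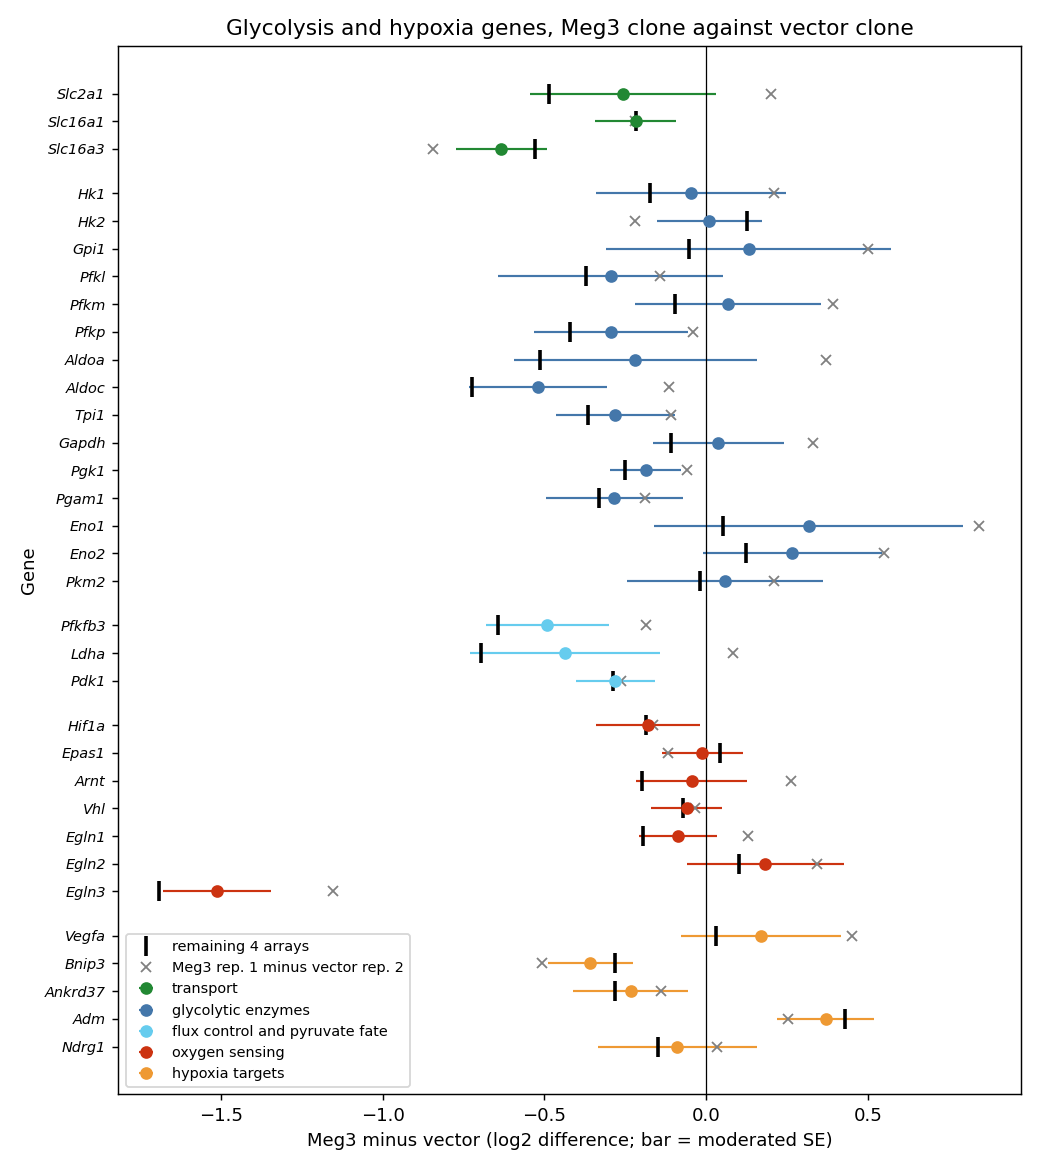
Log2 difference (Meg3 minus vector, x axis) of each of the 33 members (y axis), with coloured points for the fit of all 6 arrays and bars for its moderated standard error, black ticks for the 4 arrays that did not stand apart, and crosses for Meg3 replicate 1 minus vector replicate 2. Egln3 lies farthest left at -1.51, and many enzymes, such as Eno1 and Aldoa, have ticks and crosses on opposite sides or far apart.

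Among the oxygen-sensing genes, Egln3 was 7.21, 6.84 and 7.27 in vector replicates 1 to 3 and 5.68, 5.34 and 5.76 in Meg3 replicates 1 to 3. Egln3 was itself fairly dim, below the median level of all genes at percentile 43.7. All 3 Meg3 cultures lay more than 1 log2 unit below every vector culture, including the arrays that stood apart. The group means were 7.11 ± 0.23 and 5.59 ± 0.22 (SD, n = 3 each), a log2 difference of -1.51 (SE 0.17, 95% interval -1.90 to -1.13, limma adjusted p = 0.00766). All 10 Egln3 probe sets were lower, by -2.65 to -0.24, though 0 passed when probe sets were tested singly (limma; lowest adjusted p 0.197), where only 0.00377% of all probe sets passed. The difference was -1.69 on the 4 arrays that did not stand apart and -1.15 between the 2 that did. Leaving out Meg3 replicate 2 or Meg3 replicate 3 took the adjusted p to 0.0560 and 0.0575, with differences of -1.38 and -1.59. It was still called when any other single array was left out. With probe sets above the median level only, the difference was -2.38 (limma adjusted p = 0.0158), and with the brightest probe set it was -2.10 and not called (limma adjusted p = 0.0738).

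The paralogs did not show a difference of this size. Egln1, the main oxygen sensor of most cells, was 8.81, 8.61 and 8.83 in the vector cultures and 8.74, 8.65 and 8.60 in the Meg3 cultures. These ranges overlap, and the difference was -0.087 (95% interval -0.36 to 0.19). Egln2 was 8.38, 7.57 and 8.29 against 7.91, 8.42 and 8.45. The low value in each group belongs to an array that stood apart, and the difference was 0.18 (95% interval -0.37 to 0.74). On each array the Egln3 value minus that of Egln1 was -1.60, -1.77 and -1.56 in the vector cultures and -3.06, -3.31 and -2.85 in the Meg3 cultures, which do not overlap. The exact two-sided permutation test gave p = 0.1 for this contrast and for Egln3 minus Egln2 (0.1 each when adjusted over these 2), the smallest that 3 against 3 arrays allow. Both contrasts were chosen after the value of Egln3 was seen, so they add no separate support.

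Hif1a, which encodes the best-known HIF alpha subunit, was 9.39, 9.76 and 9.42 in the vector cultures and 9.60, 9.23 and 9.21 in the Meg3 cultures. The highest value in each group was on the array that stood apart, the reverse of Egln2, and the difference was -0.18 (SE 0.16, limma adjusted p = 1.00). Epas1, the gene of HIF-2 alpha, differed by -0.012 (SE 0.12), and was dim at 5.93 and 5.92. Arnt, the shared partner subunit, differed by -0.045 (SE 0.17) and Vhl, the substrate adaptor of the ubiquitin ligase, by -0.061 (SE 0.11). The median over the 7 oxygen-sensing genes was -0.061, with 1 called lower by limma. Egln3 and Hif1a both lie on chromosome 12, as does Meg3. The 10 nearest measured genes on each side of Egln3 had a median difference of -0.10 (range -0.32 to 0.51) and 0 were called by limma, a look chosen after the value of Egln3 was seen.

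Because Egln3 is a textbook HIF target and differed where its paralogs were not called, the promoters of the family are shown with that of the lactate exporter gene Slc16a3, described next. Each runs from 250 bases before to 50 bases after the transcription start, on the gene's own strand, from RefSeq (GRCm38.p6). Capitals mark ACGTG or GCGTG, the core letters of the HIF binding site, on either strand, so the reverse-strand forms CACGT and CACGC are also in capitals. Egln3 lies at chr12:54203825-54204124 on the minus strand, Egln1 at chr8:124949205-124949504 on the minus strand, Egln2 (the first of 2 starts) at chr7:27166753-27167052 on the minus strand, and Slc16a3 at chr11:120948817-120949116 on the plus strand.
Egln3: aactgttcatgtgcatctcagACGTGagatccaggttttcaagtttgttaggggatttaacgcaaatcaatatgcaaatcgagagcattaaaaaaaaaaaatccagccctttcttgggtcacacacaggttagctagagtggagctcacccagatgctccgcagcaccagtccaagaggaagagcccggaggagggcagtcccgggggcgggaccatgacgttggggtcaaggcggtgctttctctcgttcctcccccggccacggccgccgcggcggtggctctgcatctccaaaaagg
Egln1: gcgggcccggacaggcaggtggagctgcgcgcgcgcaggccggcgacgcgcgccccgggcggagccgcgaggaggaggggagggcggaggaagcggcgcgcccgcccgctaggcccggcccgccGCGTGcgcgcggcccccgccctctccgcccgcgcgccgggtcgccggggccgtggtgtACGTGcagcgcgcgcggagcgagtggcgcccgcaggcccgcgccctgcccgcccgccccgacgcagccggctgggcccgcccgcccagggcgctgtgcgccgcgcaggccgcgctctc
Egln2: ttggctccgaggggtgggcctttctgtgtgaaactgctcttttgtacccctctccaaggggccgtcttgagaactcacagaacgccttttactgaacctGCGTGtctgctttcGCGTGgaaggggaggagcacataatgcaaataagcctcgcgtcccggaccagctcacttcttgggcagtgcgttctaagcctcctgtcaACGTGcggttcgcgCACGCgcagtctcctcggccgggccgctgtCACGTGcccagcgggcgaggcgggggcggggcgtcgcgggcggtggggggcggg
Slc16a3: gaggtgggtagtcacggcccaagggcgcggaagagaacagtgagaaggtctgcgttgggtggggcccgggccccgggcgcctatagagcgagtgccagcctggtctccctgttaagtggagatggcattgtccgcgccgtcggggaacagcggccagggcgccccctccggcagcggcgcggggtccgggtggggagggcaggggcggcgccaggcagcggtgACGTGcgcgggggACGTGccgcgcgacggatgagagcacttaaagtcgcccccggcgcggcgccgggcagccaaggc
In this window Egln3 held 1 match, at -229 from the start, Egln1 held 2, Egln2 held 6 (where overlapping matches on the 2 strands each count) and Slc16a3 held 2, at -27 and -14. Of the 33 members, 31 had a promoter sequence. A match in at least 1 start was held by 27 of these 31, beside 46.7% of all genes with a promoter sequence. By window the share was 78.3% of the members' 46 windows, beside 43.8% of all 32851 windows of the same length. Member windows also had a higher GC content (median 62.2% against 52.7%), which both motifs share. A match is a description of letters, not a binding site.

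Among the transport genes, Slc16a3, which encodes the lactate exporter MCT4, was 7.38, 7.49 and 7.05 in the vector cultures and 6.65, 6.66 and 6.72 in the Meg3 cultures. The groups did not overlap, and the Meg3 cultures had an SD of 0.038. The difference was -0.63 (SE 0.14), a ratio of 1.55, and was not called (limma adjusted p = 0.137). It passed without both arrays that stood apart (-0.53, adjusted p = 0.0358) and with those arrays as a block (adjusted p = 0.0161), the latter chosen after seeing the data. Over all its alternatives the adjusted p ranged from 0.0161 to 0.997. Its 8 probe sets were split, with 5 lower by up to -1.67 and 3 higher by up to 0.22, and the brightest differed by 0.0385.

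Slc16a1, encoding the lactate and pyruvate transporter MCT1 that beta cells normally silence, differed by -0.22 (SE 0.12), with 5 of 6 probe sets lower. By level it lay at percentile 61.7 of all genes, Slc16a3 at 56.1 and Ldha, described below, at 91.3. Each was thus above the median of all genes by its mean over all arrays. In the Meg3 cultures, however, Slc16a3 lay close to that median of 6.66, at 6.65, 6.66 and 6.72. Slc2a1, encoding the glucose transporter GLUT1, was 8.96, 7.77 and 8.68 against 7.97, 8.44 and 8.22. Its lowest vector value and lowest Meg3 value were on the arrays that stood apart, and the groups overlapped through vector replicate 2 alone. The difference was -0.26 (SE 0.29) with all arrays, -0.49 on the 4 that did not stand apart and 0.20 between the 2 that did.

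**Figure D2:**
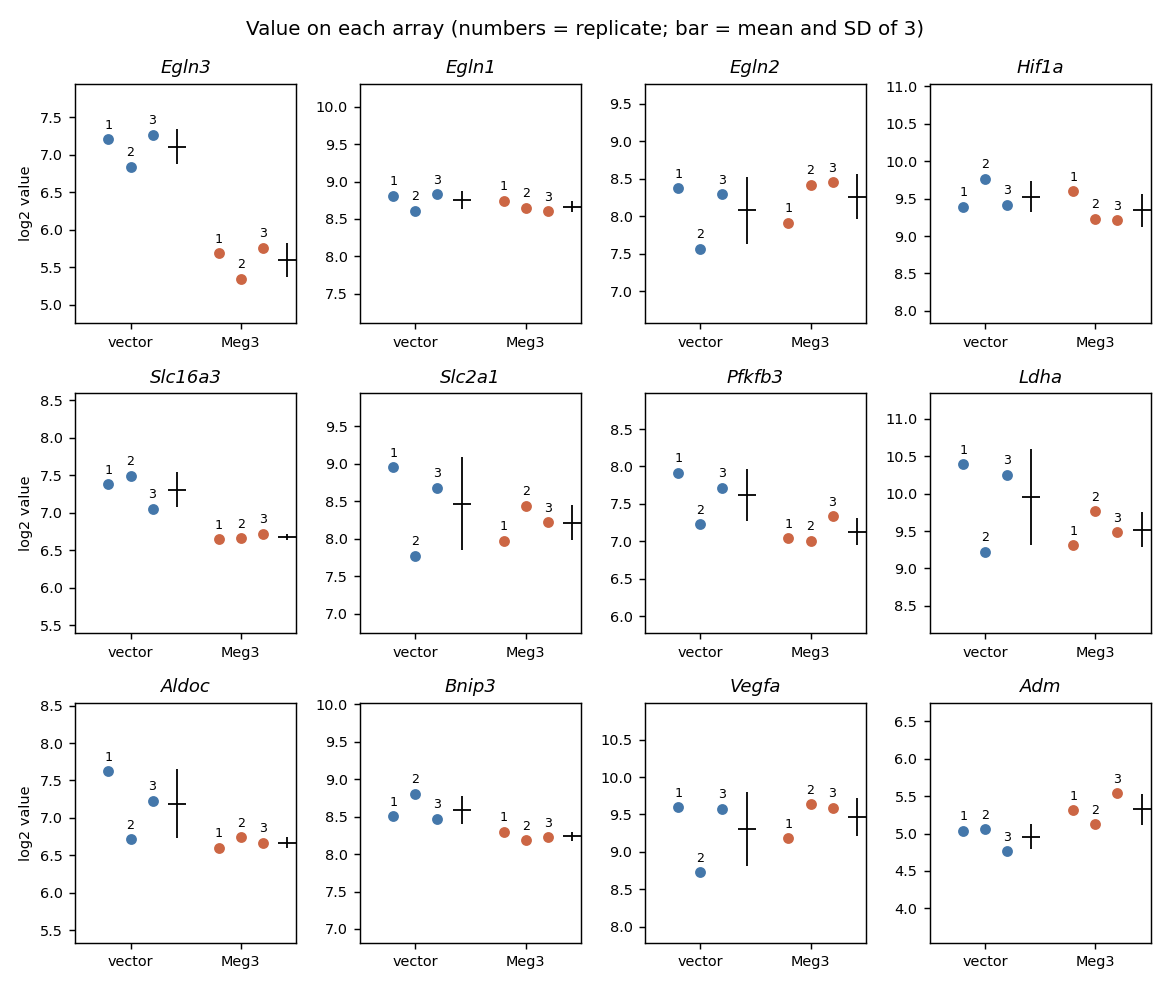
Log2 value of 12 members on each array (y axis, spanning the same number of log2 units in every panel), by clone (x axis), with the replicate number above each point and the mean and SD of 3 cultures as a bar. Egln3, Slc16a3 and Bnip3 are lower and Adm is higher in the Meg3 clone without overlap. In Slc2a1, Ldha, Aldoc and Vegfa vector replicate 2 lies far below vector replicates 1 and 3.

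The controls of flux and pyruvate fate all had negative differences, and 0 of 3 were called (limma; 2 had an unadjusted p under 0.05). Pfkfb3 encodes the enzyme that makes fructose 2,6-bisphosphate, an activator of glycolysis. It was 7.91, 7.23 and 7.72 against 7.04, 7.01 and 7.34, with overlap through vector replicate 2 and Meg3 replicate 3, and differed by -0.49 (SE 0.19, limma adjusted p = 0.615). Of its 20 probe sets, 18 were lower. Ldha, the lactate dehydrogenase subunit gene, was 10.39, 9.23 and 10.25 against 9.31, 9.77 and 9.49. Vector replicate 2 was the lowest of all 6 arrays and the other vector cultures were the highest, so the difference was -0.44 (SE 0.29) with all arrays, -0.80 without vector replicate 2 (limma adjusted p = 0.0430) and -0.70 without both arrays that stood apart (limma adjusted p = 0.00883). All 7 Ldha probe sets were lower, by -0.66 to -0.06. Pdk1, encoding a kinase that keeps pyruvate out of the mitochondrial oxidation step, differed by -0.28 (SE 0.12) without overlap between the groups. Of its 13 probe sets 11 were lower, but the brightest was 0.51 higher.

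The 15 enzymes of the chain did not share a direction. Differences were negative for 8 and positive for 7, with a median of -0.046 and a range of -0.52 to 0.32, and 0 were called by limma (1 had an unadjusted p under 0.05). The most negative was Aldoc, a brain-type aldolase gene, at 7.63, 6.72 and 7.23 in the vector cultures and 6.60, 6.74 and 6.67 in the Meg3 cultures. Vector replicate 2 fell within the Meg3 range and the other vector cultures lay above it. The difference was -0.52 (SE 0.21, limma adjusted p = 0.661), all 9 probe sets were lower, and without vector replicate 2 it was -0.76 (limma adjusted p = 0.0407).

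In the first steps of the chain, differences were -0.046 for the hexokinase gene Hk1 and 0.010 for Hk2, which was dim at a mean of 5.55 in the vector clone. They were 0.13 for the isomerase gene Gpi1, -0.30 for Pfkl, 0.067 for Pfkm and -0.29 for Pfkp, the phosphofructokinase subunit genes, and -0.22 for Aldoa. Most probe sets of Aldoa and Pfkp were lower, 9 of 9 and 22 of 25. In the later steps, differences were -0.28 for both Tpi1 and Pgam1, with all 6 probe sets of each lower, and 0.32 for Eno1, 0.27 for Eno2 and 0.057 for the pyruvate kinase gene Pkm2, now Pkm. Pgk1 had the smallest spread of the chain, at 10.26, 10.14 and 10.21 against 10.08, 10.01 and 9.96, so the groups did not overlap at a difference of -0.19 (SE 0.11), while its brightest probe set differed by 0.040. Gapdh rested on 1 probe set, which read 11.85, 11.19 and 11.88 against 11.52, 11.88 and 11.63, and differed by 0.038 (SE 0.20). Its sign turned without vector replicate 2 (-0.19), without Meg3 replicate 2 (-0.062) and on the 4 remaining arrays (-0.11). Abundant glycolytic genes such as Gapdh, Pgk1, Aldoa, Eno1 and Ldha have many processed pseudogenes, so part of their signal can come from near-identical copies and the values are uncertain to that extent.

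By their medians, single arrays separated the enzymes from the oxygen-sensing genes more than the clones did. On vector replicate 2, 14 of 15 enzymes lay below the mean of the other vector cultures, by a median of -0.95, and on Meg3 replicate 1, 13 of 15 lay below the other Meg3 cultures, by a median of -0.48. Over all genes 42.5% and 47.3% lay below, with medians of 0.081 and 0.018. For the 7 oxygen-sensing genes the medians were -0.21 and 0.059, with 5 and 3 of 7 below. These genes were mixed, with Egln2 at -0.77 and -0.53 and Arnt at -0.57 and -0.11, while Hif1a and Epas1 read higher. Low readings were not limited to enzymes, as Ldha deviated by -1.10 and -0.32 and Slc2a1 by -1.04 and -0.36. Eno1 lay lowest against its group on vector replicate 2, at 10.61, 8.76 and 10.40 in the vector cultures and 9.61, 10.59 and 10.52 in the Meg3 cultures. Gpi1 read 11.39, 9.81 and 11.29 against 10.31, 11.38 and 11.19. Both genes had like values on the 4 remaining arrays (differences of 0.053 and -0.053) and low values on those that stood apart. Hk2 (by 0.49 and 0.15) was the enzyme that read higher on both of those arrays, and Hif1a (by 0.36 and 0.38), Epas1 (by 0.22 and 0.059), Pdk1, Bnip3 and Ankrd37 did so as well.

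Across the 33 members, the deviation on vector replicate 2 and that on Meg3 replicate 1 had a Pearson r of 0.89 and a Spearman rho of 0.88, against 0.65 and 0.58 over all 20416 genes. Like values were found for other hypoxia and HIF genes (0.84 and 0.85), beta cell markers (0.84 and 0.78) and other genes of glucose metabolism (0.77 and 0.73). The short marker lists gave 0.73 and 0.68 for exocrine and 0.52 and 0.21 for fibroblast genes. Endothelial and leukocyte genes gave 0.46 and 0.024, and other islet endocrine genes -0.11 and -0.14. These deviations are taken within different clones and have no array in common, but all genes of an array share its library and scan. Genes are not independent replicates, and no p is given. The beta cell markers had medians of -0.23 and -0.23 on these arrays, and beta cell content and RNA quality as a part of this pattern were not tested.

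**Figure D3:**
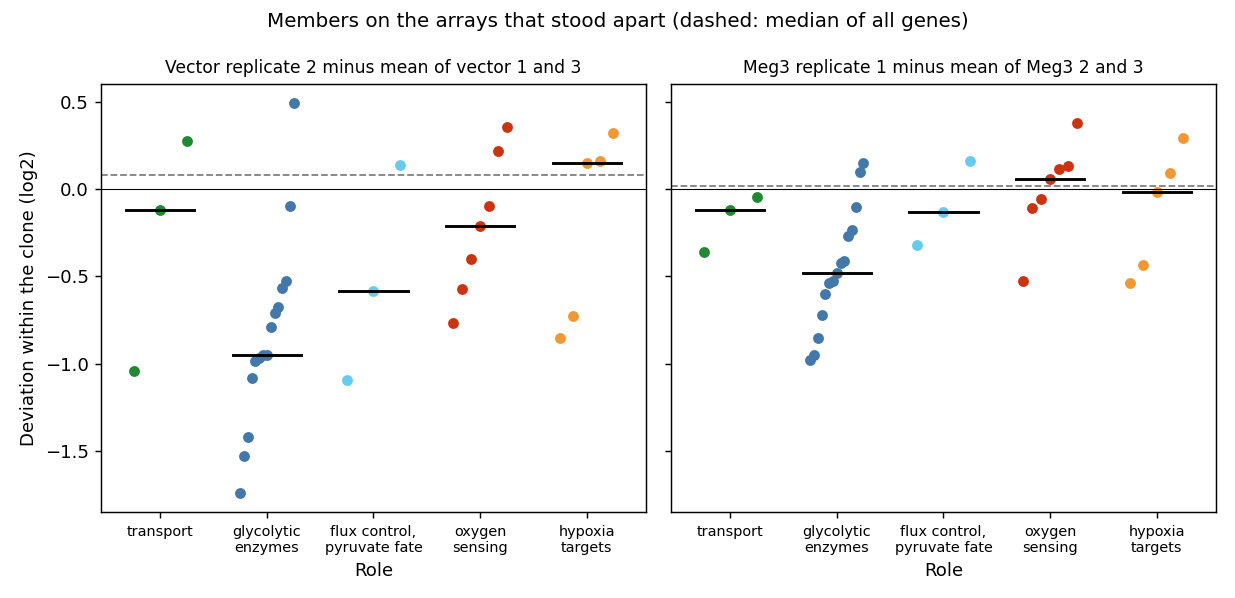
Deviation (log2, y axis) of each member on vector replicate 2 (left) and Meg3 replicate 1 (right) from the mean of the other cultures of its clone, by role (x axis), with points for genes, black lines for role medians and a dashed line for the median of all genes. Enzymes lie lowest in both panels, with medians of -0.95 and -0.48, while the oxygen-sensing genes have medians of -0.21 on the left, where 5 of 7 lie below zero, and 0.059 on the right.

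The comparison of clones therefore depended on which arrays entered it. Between the 2 arrays that stood apart the enzymes had a median of 0.21, with 7 of 15 negative. On the remaining 4 arrays the median was -0.17, with 12 of 15 negative. The oxygen-sensing genes had medians of -0.036 and -0.19. Over all genes the medians were -0.02 and 0.02, with 52.8% and 45.3% negative. With those arrays left out, 7 of 33 members were called lower and 0 higher (limma), where the background was 4.01% lower and 1.43% higher. They were Egln3 (-1.69), Aldoc (-0.72), Ldha (-0.70), Pfkfb3 (-0.64), Slc16a3 (-0.53), Aldoa (-0.51) and Pfkp (-0.42). This rests on 2 cultures per clone, and the arrays were left out for their spread with earlier results known. When instead all 6 arrays were kept with those that stood apart as a block, Egln3 and Slc16a3 were called lower and 0 members higher, where the background was 2.69% and 1.23%.

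Further settings moved the number of members called, each read beside its own background. Without vector replicate 2, 3 were called lower (Egln3, Ldha and Aldoc) and 0 higher, beside 1.33% and 0.382% of all genes. Without Meg3 replicate 2 it was 0 and 0, beside 0.0833% and 0.0441%, and without Meg3 replicate 3 again 0 and 0, beside 0.0686% and 0.0392%. The brightest probe set of each gene gave 0 and 0, beside 0.137% and 0.0588%. Weighting arrays by their spread gave 10 lower and 1 higher (Adm), beside 7.93% and 5.21%. With the replicate number as a block, Egln3 was called lower (limma adjusted p = 0.0265) and 0 members higher, beside 0.0931% and 0.0539%, and Plod2 and Fbp1, described next, were not (0.103 and 0.204).

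The 5 other targets of the hypoxia response did not move as one, and 0 were called (limma; 1 lower and 1 higher had an unadjusted p under 0.05). Bnip3, which encodes a mitophagy receptor, was 8.50, 8.81 and 8.47 against 8.30, 8.18 and 8.22. The groups did not overlap, and the difference was -0.36 (SE 0.13, limma adjusted p = 0.548). Of its 6 probe sets, 4 were lower and 2 higher, from -1.37 to 0.82, and the brightest differed by 0.00467. Adm, encoding the vasodilator peptide adrenomedullin, was 5.04, 5.06 and 4.76 against 5.31, 5.12 and 5.54. It was higher without overlap (0.37, SE 0.15, limma adjusted p = 0.648), with all 4 probe sets higher, but it was dim, at percentile 19.0 of all genes by level. Vegfa, the vessel growth factor gene, was 9.60, 8.73 and 9.57 against 9.18, 9.64 and 9.59, and differed by 0.17 (SE 0.25). Its low values were again on the arrays that stood apart, it differed by 0.030 on the remaining 4, and 13 of 14 probe sets were higher. Ankrd37 differed by -0.23 (SE 0.18) and Ndrg1 by -0.089 (SE 0.25). In all, 5 of 33 members were lower and 1 higher without overlap between the clones, beside 6.39% and 6.41% of all genes.

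Other genes of the same pathways were read from 2 further lists. Of 35 measured hypoxia and HIF genes, 1 was called lower and 0 higher (limma), the median was -0.06, and 7 were lower and 1 higher without overlap. Over all genes 0.465% and 0.201% were called, and 6.39% and 6.41% did not overlap. The called gene was Plod2, a lysyl hydroxylase that prepares collagen for cross-linking and a HIF target. It read 8.51, 8.86 and 8.73 against 7.71, 7.59 and 7.56, a 2.11-fold fall (log2 difference -1.08, SE 0.13, limma adjusted p = 0.0113), with 20 of 22 probe sets lower. The groups lay well apart, and the difference was as large between the arrays that stood apart (-1.14) as on the rest (-1.04). Leaving out vector replicate 3, Meg3 replicate 2 or Meg3 replicate 3 took its adjusted p to 0.0769, 0.0982 and 0.107. It was also not called with the brightest probe set (-0.79, limma adjusted p = 0.160) or the median of probe sets (-1.28, limma adjusted p = 0.0728).

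Named after their values were seen, the collagen prolyl hydroxylase gene P4ha1 differed by -0.69 (SE 0.14, limma adjusted p = 0.106), the oxidative folding gene Ero1a by -0.69 (SE 0.15, 0.130) and the stress-response gene Ddit4 by -0.63 (SE 0.12, 0.0823). All probe sets of these 3 genes were lower (17, 17 and 4), and the groups did not overlap. They passed without both arrays that stood apart, at limma adjusted p = 0.00948, 0.00467 and 0.0162, in the 2 against 2 comparison that called 7 of the 35 genes lower and 0 higher, beside 4.01% and 1.43% of all genes. The mitophagy receptor gene Bnip3l differed by -0.32 (SE 0.13).

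Of 34 other genes of glucose metabolism, 1 was called lower and 0 higher (limma), the median was -0.01, and 3 were lower and 2 higher without overlap, which is near the 6.39% and 6.41% of all genes. Without both arrays that stood apart 1 was called lower and 1 higher (limma), Fbp1 and Eno3, beside 4.01% and 1.43% of all genes. With those arrays as a block the same genes were called, beside 2.69% and 1.23% of all genes. Fbp1, encoding the gluconeogenic enzyme fructose-1,6-bisphosphatase that runs against phosphofructokinase, fell 2.13-fold. It read 7.93, 7.31 and 7.69 against 6.44, 6.75 and 6.46, without overlap (log2 difference -1.09, SE 0.18, limma adjusted p = 0.0432), and all 8 probe sets were lower. This call was lost on leaving out any array but vector replicate 2, with adjusted p from 0.133 to 0.280 in those 5 fits. It was also lost with the brightest probe set (limma adjusted p = 0.116) and the median of probe sets (limma adjusted p = 0.252). Named after their values were seen, the muscle enolase gene Eno3 (0.76, SE 0.22, limma adjusted p = 0.326) and Ldhb (0.39, SE 0.16, 0.645), the heart-type lactate dehydrogenase subunit gene, were higher without overlap. Ldha and Ldhb thus had differences of opposite sign, and neither was called with all arrays.

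**Figure D4:**
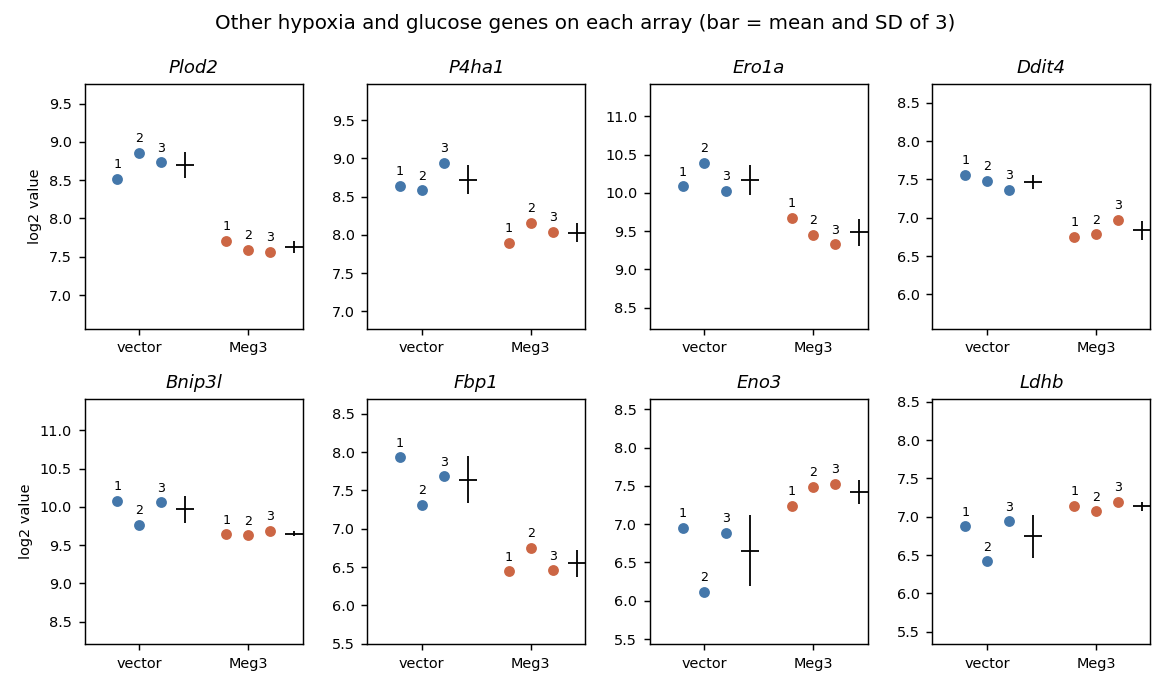
Log2 value on each array (y axis, spanning the same number of log2 units in every panel) of 8 hypoxia and glucose genes outside the module, by clone (x axis), with the replicate number above each point and the mean and SD of 3 cultures as a bar. Plod2 and Fbp1 are shown as called genes, and the others were picked after their values were seen. The clones do not overlap in any panel, which this choice favours and which is no separate support. Of all genes, 6.39% were lower and 6.41% higher without overlap. Vector replicate 2 lies below its group in Fbp1, Eno3 and Ldhb but not in Plod2.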

How the data were processed

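RNA from 3 cultures of each clone was hybridised to Affymetrix arrays, 6 µg of total RNA per array. The values the authors deposited are log2 signals per probe set. RMA and Partek are the tools in the submitters' processing notes, with versions and build not given in the sources used here, and were run by the submitters. There were 241419 probe sets, and the median of an array lay between 7.02 and 7.19. Of these, 212097 carry 1 gene symbol and gave 20416 genes. The 4475 with several symbols (12 of them listing a member) and the 24847 with none were left out. Symbols of 20363 genes were matched to GRCm38.p6, 2742 of them through a synonym. Precision is limited by the number of arrays.

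The clones were tested in limma 3.58.1 (R 4.3.3) by lmFit and eBayes, two-sided and as Meg3 minus vector, without covariates or a filter on low values, with Benjamini-Hochberg adjustment over all genes. Fold changes are 2 to the power of the log2 difference. The script was checked on simulated data with independent noise for each gene and array. That check does not cover deviations that many genes share on an array, as on those that stood apart. The members, gene lists and alternatives were chosen with earlier results of these data known. Arrays were given in full for called members, for members without overlap and a difference of at least 0.3, and for the brightest and most different member of each role. Egln1, Egln2, Pgk1, Eno1 and Gpi1 were given in full outside this rule. From the 2 wider lists the called genes Plod2 and Fbp1 were named by rule. P4ha1, Ero1a, Ddit4, Bnip3l, Eno3 and Ldhb were named outside it, after their values were seen.

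Deviations from group means correlated at -0.61, -0.63 and 0.28 for replicate numbers 1 to 3, and vector replicate 2 with Meg3 replicate 1 at 0.65. Deviations within a group are tied to each other, so the arrays that stood apart weigh on all these values. They cannot show whether arrays with the same number were handled together.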

Additional observations from a re-analysis of the deposited data

How the results depend on the processing

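Members were fitted under 17 alternatives. Egln3 was lower in all of them (-2.38 to -1.38) and called in 14. It was not called with the brightest probe set of each gene (-2.10, limma adjusted p = 0.0738) or without Meg3 replicate 2 or Meg3 replicate 3. The number of members called lower, 1 with all arrays, was 0 with the brightest probe set, 7 without vector replicate 2 and Meg3 replicate 1, 2 with those arrays as a block (chosen after seeing the data) and 10 with array weights, where 1 was also called higher and where 7.93% and 5.21% of all genes were called lower and higher. That fit stopped before it converged. Leaving out 1 array at a time gave 0 to 3 members lower and 0 higher. The replicate block kept 1 called lower and 0 higher (0.0931% and 0.0539% of all genes), and whether replicate numbers pair the arrays is not known.

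The median of the oxygen-sensing genes, -0.061, was -0.14 with the median of probe sets, -0.16 with array weights and -0.19 without both arrays that stood apart, against a pooled SD of 0.066 between arrays of a clone, and lay from -0.092 to -0.038 when 1 array was left out. The median of the enzymes ranged from -0.38 to 0.056 when 1 array was left out, from -0.046 with all arrays, where the pooled SD was 0.44. Of the 33 members, the sign turned in 7 with the brightest probe set, in 5 with array weights, in 5 without both arrays, in 1 to 9 when 1 array was left out (9 without vector replicate 2), and in 0 to 2 under each other setting. These included Slc16a3 (0.0385) and Bnip3 (0.00467) with the brightest probe set, Gapdh (-0.16) and Vegfa (-0.000863) with array weights, and Gapdh (-0.11) without both arrays. The others were Pgk1, Pkm2, Pdk1 (0.51), Epas1 and Ndrg1 with the brightest probe set, Gpi1, Pfkm and Pkm2 with array weights, and these 3 and Epas1 without both arrays. Leaving out 1 array gave -0.19 to 0.16 for Gapdh and -0.12 to 0.32 for Vegfa. The cause of these changes was not tested. Centring the arrays, quantile normalization again, eBayes with trend and robust estimation, the median of probe sets, leaving out the dimmest 30% of genes (31 members left) and keeping brighter probe sets only (32 left) each kept the call of Egln3.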
